A study of Mus musculus with 57 samples.

Results

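The targets Amy2a1 and Rnase1, which stand for pancreatic amylase and pancreatic ribonuclease, were followed through caerulein pancreatitis and recovery in mouse pancreas. They were taken by name and are 2 of the 9780 targets in the tables and 2 of the 2688 that were tested. The GeoMx Whole Transcriptome Atlas counts barcoded probes released by light from chosen squares of a fixed tissue section, and 57 such regions of about 650 µm on a side were measured on sections of 5 µm. The mice were C57BL/6 and 8 to 9 weeks old, and caerulein was given into the peritoneum hourly for 8 hours on each of 2 days. The times of 3, 12, 24, 48 and 72 hours had 3, 6, 6, 5 and 4 regions, those of 5, 7, 14 and 30 days had 6, 6, 7 and 7, and control pancreas had 7. The sources used here do not give what the times are counted from or how control mice were handled. The tissue lay in 2 arrays of 12 cores, each with every group, and several regions were chosen per tissue sample. No label says which animal or core a region came from. With 12 cores for 10 groups on each array, most groups cannot have had more than a single core there. Regions of such a group on the same array share that core, and so an animal. For any other group they may share an animal, and no label says which groups those are. Both targets were called lower than in control at 3, 12 and 24 hours, and neither at 14 or 30 days. Amy2a1 was also called at 48 and 72 hours. Those calls were lost in some fits without the counts of 1 array for that time or for control. Rnase1 missed the threshold at 48 and 72 hours in the main test but not in some alternatives.

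Amylase cuts starch into short sugars, and pancreatic ribonuclease cuts RNA of the diet. Acinar cells, the bulk of the exocrine pancreas, make both, store them in zymogen granules with the other digestive enzymes, and release them when cholecystokinin or acetylcholine acts on the cell. Caerulein is a cholecystokinin analogue, and repeated high doses overstimulate acinar cells and cause pancreatitis in rodents.

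The Amy2a1 probe is 41 bases long and the probe table places it in 5 genes of the amylase cluster on chromosome 3 (GRCm38.p6): Amy2a5 at chr3:113258090-113258130, Amy2a4 at chr3:113290702-113290742, Amy2a3 at chr3:113323305-113323345, Amy2a2 at chr3:113355911-113355951 and Amy2a1 at chr3:113531681-113531721. Counts of these near-identical copies cannot be told apart, so each amylase value below is for the cluster. Amy1, the amylase gene known for its salivary and hepatic transcripts, has a probe of its own at chr3:113564985-113565019. The Rnase1 probe of 35 bases lies at chr14:51145783-51145817, within the gene at chr14:51145002-51146767. Whether these positions are exonic or in a UTR was not analysed here.

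Because both targets were low at the same times, the sequence around their start sites is given, as RefSeq has it on GRCm38.p6, from 250 bases before to 50 bases after the annotated start. Capitals mark 3 motifs searched on both strands: the E-box CANNTG, which basic helix-loop-helix factors bind, the core of the TC-box to which the Rbpj and Rbpjl partners of the acinar factor Ptf1a bind, TGGGA or its reverse complement TCCCA, and the TATA box TATAAA. All 6 genes lie on the minus strand, and the sequences run 5′ to 3′ on it. The Amy2a5 window spans chr3:113258650-113258949, the Amy2a1 window chr3:113532379-113532678 and the Rnase1 window chr14:51146718-51147017.
Amy2a5: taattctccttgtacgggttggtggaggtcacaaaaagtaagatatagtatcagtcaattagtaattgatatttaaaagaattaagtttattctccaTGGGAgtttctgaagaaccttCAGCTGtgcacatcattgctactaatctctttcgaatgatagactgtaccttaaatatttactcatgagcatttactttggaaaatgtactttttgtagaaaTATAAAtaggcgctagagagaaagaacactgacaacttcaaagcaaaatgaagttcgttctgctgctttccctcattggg
Amy2a1: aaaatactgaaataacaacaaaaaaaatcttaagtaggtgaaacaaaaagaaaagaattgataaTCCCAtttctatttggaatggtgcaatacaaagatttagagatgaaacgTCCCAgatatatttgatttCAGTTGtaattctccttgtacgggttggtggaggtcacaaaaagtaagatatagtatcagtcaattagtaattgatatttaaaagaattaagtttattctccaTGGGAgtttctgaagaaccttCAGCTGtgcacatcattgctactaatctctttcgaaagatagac
Rnase1: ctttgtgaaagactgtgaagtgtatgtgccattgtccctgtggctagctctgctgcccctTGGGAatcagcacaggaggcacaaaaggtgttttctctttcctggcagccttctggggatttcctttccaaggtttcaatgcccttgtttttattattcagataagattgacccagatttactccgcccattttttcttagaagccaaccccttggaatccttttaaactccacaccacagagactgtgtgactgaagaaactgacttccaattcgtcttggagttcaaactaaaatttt

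The Amy2a2, Amy2a3 and Amy2a4 windows were identical to each other, and 282 of their 300 bases were the same in the Amy2a1 window. The annotated starts of Amy2a5 and of the other copies are set differently. With a shift of 138 bases, 161 of the 162 bases that the Amy2a5 and Amy2a1 windows share were the same, so the TGGGA and CAGCTG that stand at 98 and 119 of the Amy2a5 window, counted from 1 at its 5′ end, stand at 236 and 257 of the Amy2a1 window. The Amy2a5 window also held TATAAA at 221, and the Amy2a1 window held CAGTTG at 133 and TCCCA at 65 and 114. All of these lie outside the 162 shared bases, where the other window does not reach, so they show no difference between the copies. The Rnase1 window held 1 match, TGGGA at 61, and neither an E-box nor TATAAA. Of 32851 mouse promoter windows of this length, 72.3% held an E-box, 61.6% held the TC-box core, 45.5% held both and 13.6% held TATAAA. These matches describe letters and not binding.

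Counts per region summed to between 1036609 and 5035488, with a median of 2036021, at a sequencing saturation of 94.64 to 96.34%. The average of the negative probes, which match no transcript, ran from 42.1 to 186.1 counts, and both members lay above it in every region. Levels are the authors' Q3-normalised counts, in which each region is multiplied by 1 factor that brings its 75th percentile over all targets to 136.81. No 2 regions held identical counts. Of the acinar marker genes, 5 or 6 of the 6 were above 2 times background in at least as many regions as not in every group, whereas none of the 7 endothelial markers measured was so in any group. In such regions fewer acinar cells and less RNA per cell cannot be told apart.

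Amy2a1 was among the most abundant targets of the control pancreas, where it ranked 4th by mean level, and it stayed within the first 11 at every time. In control regions it ran from 34707 to 89501 Q3-normalised counts with a median of 62059.8. It stood at 12818, 8643 and 10618 in the 3 regions at 3 hours, ran from 8786 to 17008 with a median of 12730 at 12 hours, and ran from 3043 to 12072 with a median of 8285 at 24 hours. The lowest amylase values of the series were thus at 24 hours, in regions of array 2.

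At 48 hours the 5 regions held 7826, 7242, 8605, 12413 and 9904 counts of Amy2a1, and at 72 hours the 4 regions held 8606, 11496, 12836 and 9133. The level at 5 days, 10556 to 18606 with a median of 11956, was still of that order. Every region from 3 hours to 5 days lay below every control region. How many other targets separated from control in this way was not counted, here or below.

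At 7 days Amy2a1 ran from 8305 to 29111 with a median of 21475, again without overlap with the control range. At 14 days it ran from 26710 to 91671 with a median of 72294, and at 30 days from 28947 to 55330 with a median of 42547. Both late ranges overlapped that of control, but 2 of 7 regions at each of these times lay below the lowest control region, and 4 of 7 control regions lay above the highest region at 30 days. In order of the medians the groups ran from 24 hours, 48 hours, 72 hours, 3 hours, 5 days, 12 hours and 7 days to 30 days, control and 14 days, and the ranges of all neighbours in this order overlapped.

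Rnase1 was lowest at the first time, by its median. It ranked 13th in control regions, 53rd at 3 hours and 18th at 48 hours. Its control level ran from 9053 to 18698 with a median of 15692. At 3 hours the 3 regions held 1211, 1304 and 1587 counts. At 12 hours the range was 787 to 2927 with a median of 1742, and at 24 hours 465.6 to 3517 with a median of 2466. The 2 lowest values of all, 465.6 and 655, were in array 2 at 24 hours.

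By 48 hours the Rnase1 level was 3790, 4484, 4774, 5875 and 5406 in the 5 regions, every one above every region at 24 hours. At 72 hours it was 4820, 6364, 4680 and 5373. No region up to 72 hours reached the control range. Such separation between groups was not counted for other targets. At 5 days it ran from 5075 to 10176 with a median of 7986 and at 7 days from 5437 to 10349 with a median of 7764, which overlapped control through 2 of 6 regions and 1 of 6 regions. At 14 days it ran from 10380 to 16418 with a median of 14718, and at 30 days from 9920 to 17152 with a median of 14730. In order of the medians (3, 12, 24, 48 and 72 hours, 7 days, 5 days, 14 days, 30 days, control) neighbouring ranges were apart at 2 places, between 24 and 48 hours and between 5 and 14 days.

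**Figure D1:**
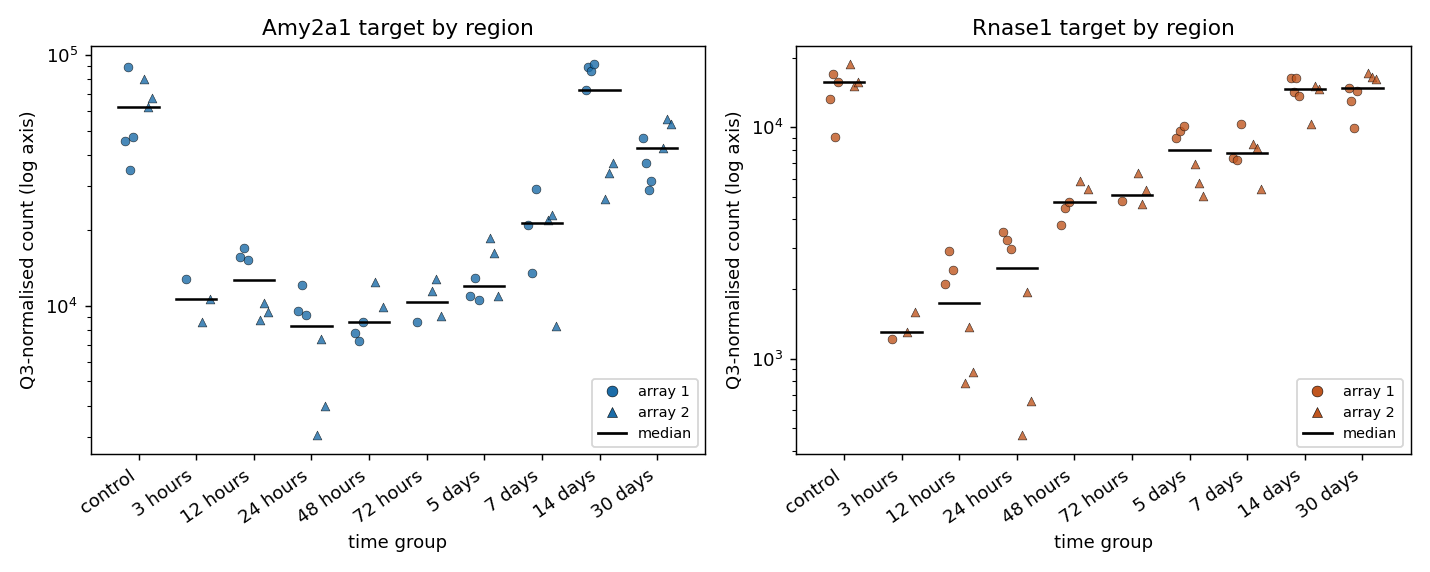
Q3-normalised counts of Amy2a1 (left) and Rnase1 (right) in each of the 57 regions, on log axes, by time group, with circles for array 1, triangles for array 2 and a line at each group's median. Amy2a1 stays low through 5 days, with medians of 8285 at 24 hours and 11956 at 5 days. The Rnase1 median over both arrays climbs at each step from 1304 at 3 hours to 7986 at 5 days. On array 2 alone the summed Rnase1 counts were lower at 12 and 24 hours than at 3 hours (log2 differences from control of -4.20, -4.24 and -3.55).

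As a share of the control mean, Amy2a1 stood at 17.6, 20.9, 12.4, 15.1 and 17.3% through the times of 3, 12, 24, 48 and 72 hours, and at 22, 32.0, 103 and 69.1% through those of 5, 7, 14 and 30 days. Rnase1 stood at 9.15, 11.7, 14.3, 32.6 and 35.5%, then at 52.0, 52.4, 96.5 and 97.3%. In units of the negative-probe value, Amy2a1 averaged 99.9 ± 43.2 times background at 24 hours (SD, n = 6) and 681 ± 222 in control (n = 7). Rnase1 averaged 16.4 ± 1.32 times background at 3 hours (n = 3) and 167 ± 33.9 in control. In single regions Rnase1 came nearest to background at 24 hours on array 2, at 7.01 and 8.98 times it.

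Each time was then compared with control in edgeR's quasi-likelihood test across all 2688 targets, on 20 sums of counts, 1 for each group on each array, with Benjamini-Hochberg adjustment. With 2 sums a group, each p-value rests on a spread pooled over all groups, and all 9 comparisons share the control sums. Both members differed among the 10 groups (adjusted p = 1.01e-04 for Amy2a1 and 6.90e-05 for Rnase1, edgeR), as did 42.1% of all tested targets.

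Amy2a1 was lower than in control at each of the first 5 times. Its log2 difference was -2.59 ± 0.51 at 3 hours (SE, adjusted p = 0.00255, edgeR), where 11.4% of the tested targets were called in either direction, 3.76% lower and 7.63% higher. It was -2.48 ± 0.51 at 12 hours (adjusted p = 0.00167), where 42.9% were called, 21% lower and 21.8% higher, and -3.21 ± 0.53 at 24 hours (adjusted p = 2.74e-04), where 42.3% were called, 20.5% lower and 21.8% higher. The calls at 12 and 24 hours are therefore to be read against many others.

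Later the background of calls was small. At 48 hours Amy2a1 differed by -2.74 ± 0.51 (adjusted p = 0.00681, edgeR), with 1.67% of targets called and 1% called lower. At 72 hours the difference was -2.70 ± 0.51 (adjusted p = 0.00900), with 1.08% called and 0.409% called lower. At 72 hours it had the lowest log2 difference of all 2688 tested targets. Each of these calls was lost when single sums were left out. At 48 hours the adjusted p was 0.206 without the 48-hour sum of array 1, 0.0599 without that of array 2 and 0.0789 without the control sum of array 2. At 72 hours it was 0.198 without the 72-hour sum of array 1 and 0.126 without the control sum of array 2.

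From 5 days Amy2a1 did not pass the threshold of 0.05. Its difference was -2.23 ± 0.50 at 5 days (adjusted p = 0.0631, edgeR; 0.372% of targets called, 0.112% lower) and -1.71 ± 0.50 at 7 days (adjusted p = 0.461; 0.0372% called), again the lowest estimate of all tested targets at both times. DESeq2 on the same sums gave adjusted p = 3.95e-04 at 5 days and 0.0161 at 7 days. At 14 days it was -0.11 ± 0.49 and at 30 days -0.54 ± 0.48 (adjusted p = 0.997 and 1.00), where 0% and 0.0372% of targets were called.

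Rnase1 had its lowest fitted difference at 3 hours, the second lowest log2 difference of all tested targets after that of Clps, which encodes the lipase cofactor colipase. Its log2 difference from control was -3.60 ± 0.53 at 3 hours, -3.33 ± 0.52 at 12 hours and -3.06 ± 0.52 at 24 hours (adjusted p = 1.93e-04, 2.41e-04 and 3.45e-04, edgeR). At 48 hours it was -1.63 ± 0.49 and at 72 hours -1.62 ± 0.49 (adjusted p = 0.107 and 0.150), which missed the threshold although no region reached the control range. DESeq2 gave adjusted p = 0.0218 and 0.0179 there. From 5 days on no difference passed the threshold, with -1.03 ± 0.48 and -0.98 ± 0.48 for the times of 5 and 7 days and -0.08 ± 0.47 and -0.05 ± 0.47 for those of 14 and 30 days.

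Between times, Rnase1 was higher at 72 hours than at 24 hours by 1.44 ± 0.49 on the log2 scale (adjusted p = 0.0471, edgeR), where 19.4% of targets were called and 7.96% called higher. Amy2a1 differed by 0.51 ± 0.49 in the same comparison (adjusted p = 0.459). The Rnase1 call rests on array 2: without its 24-hour sum the difference was 0.78 (adjusted p = 0.443), and without its 72-hour sum 1.14 (adjusted p = 0.386). It was also lost under 5 other settings, with adjusted p from 0.0536 to 0.109 in edgeR. Neither member passed the threshold between 24 and 3 hours (Rnase1 0.54 ± 0.48, Amy2a1 -0.62 ± 0.48; 4.46% called) or between 5 days and 72 hours (0.58 ± 0.48 and 0.47 ± 0.48; 0.0744% called). Nor did either between 30 and 5 days, where Amy2a1 was 1.70 ± 0.50 higher (adjusted p = 0.228) and Rnase1 0.98 ± 0.48 higher (adjusted p = 0.643), with 0.446% of targets called.

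**Figure D2:**
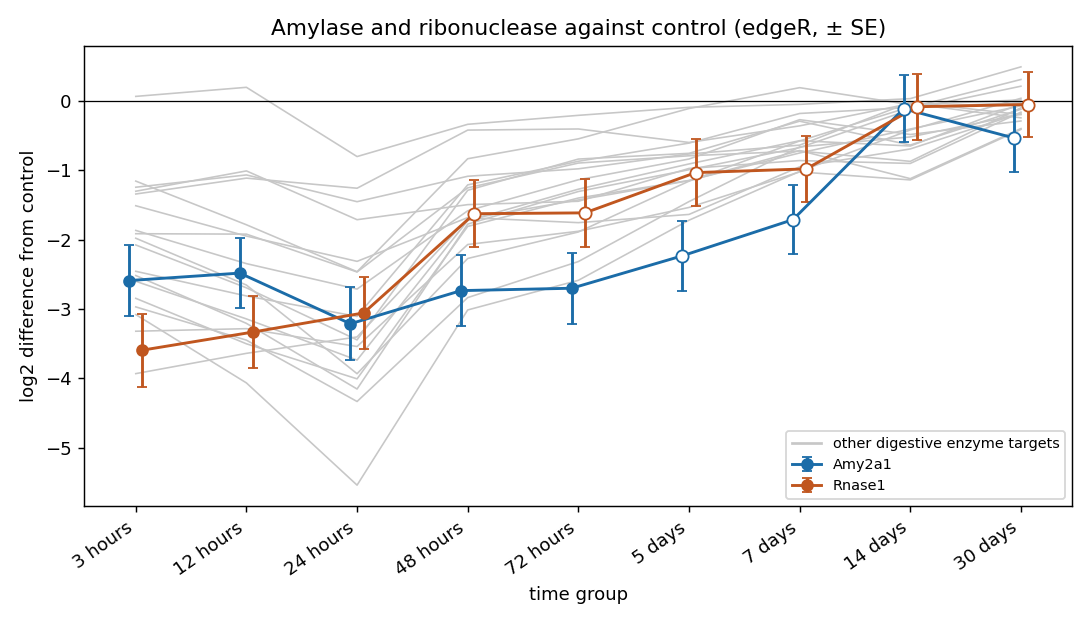
Log2 difference from control of Amy2a1 (blue) and Rnase1 (orange) at each time, with bars of ± 1 SE from edgeR, filled where the adjusted p is under 0.05 and open where it is not; grey lines are the other digestive enzyme targets. Rnase1 lies below Amy2a1 at 3 and 12 hours (-3.60 and -2.59 at 3 hours) and above it from 48 hours to 7 days (-1.63 and -2.74 at 48 hours).

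The relation between both targets was examined within each region, where depth and scaling cancel. The level of a ratio between 2 probes has no absolute meaning, so its values serve only to compare groups. The log2 ratio of Amy2a1 to Rnase1 averaged 2.96 ± 0.39 at 3 hours (SD, n = 3) and 2.98 ± 0.39 at 12 hours (n = 6), against 1.99 ± 0.26 in control (n = 7). Later it was lower, with means of 0.91 ± 0.16 (48 hours, n = 5), 0.98 ± 0.32 (72 hours, n = 4), 0.80 ± 0.62 (5 days, n = 6) and 1.23 ± 0.38 (7 days, n = 6).

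The ratio was thus 1.96 and 1.99 times that of control at 3 and 12 hours, with every region above the control range of 1.59 to 2.40. It was 0.473, 0.496, 0.438 and 0.591 times that of control at 48 hours, 72 hours, 5 days and 7 days, with every region below that range. Adjusted over the 9 times, the 2-sided exact permutation p over regions was 0.0107 and 0.00262 for the 2 early times, and 0.00284, 0.00545, 0.00262 and 0.00284 for the 4 later ones in the same order. Several regions came from each tissue sample, so these p-values are too small. At 3 hours 0.00833 is the smallest unadjusted p that 3 regions against 7 allow. The unadjusted p at 12, 48 and 72 hours and at 5 days were also the smallest that their numbers of regions allow. These p-values therefore do not rank the sizes of the differences.

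At 24 hours the ratio stood between these phases, at 2.03 ± 0.52 (n = 6), a difference of 0.04 from control (adjusted exact permutation p = 0.946 over regions, with the same limit). At 14 days it differed by -0.02 (adjusted exact permutation p = 0.946). At 30 days it was 1.52 ± 0.23 (n = 7), or 0.720 times that of control, with 4 of 7 regions below the control range (adjusted exact permutation p = 0.00612, also too small for shared tissue). The mean ratio over these regions was thus lower at 30 days than in control. A test over regions that share tissue cannot decide whether the groups differed. Neither target on its own passed the threshold in edgeR at 30 days.

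**Figure D3:**
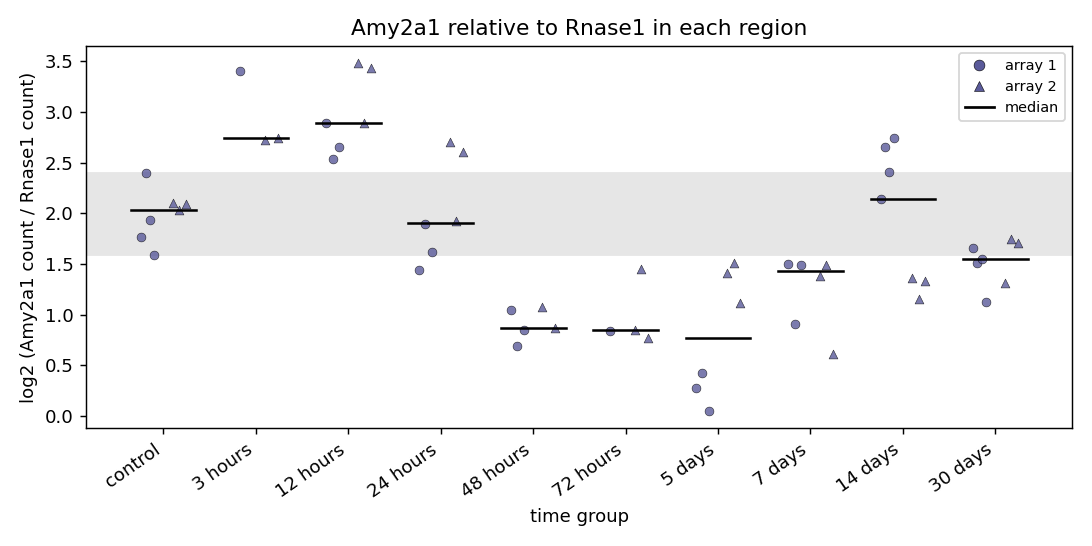
Log2 ratio of the Amy2a1 count to the Rnase1 count in each region by time group, with circles for array 1, triangles for array 2, a line at each median and a grey band over the control range (1.59 to 2.40). All regions at 3 and 12 hours lie above the band and all from 48 hours to 7 days below it, while the 14-day regions split by array.

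The arrays were set against their own control sums, since they may hold different animals. At 48 and 72 hours they lay close together, at log2 differences of -2.82 on array 1 and -2.68 on array 2 for Amy2a1 and of -1.67 and -1.60 for Rnase1 at 48 hours. At 24 hours array 2 was lower in both, at -4.05 against -2.53 on array 1 for Amy2a1 and -4.24 against -2.23 for Rnase1. At 12 hours the Rnase1 differences were -4.20 on array 2 and -2.63 on array 1. At 3 hours they were -3.55 on array 2 and -3.66 on array 1. The lowest Rnase1 value thus stood at 24 hours on array 2, close to that at 12 hours, and at 3 hours on array 1. That difference between arrays was not tested. On array 1 the sums at 3 and at 72 hours hold 1 region each.

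The 14-day group was split for amylase. The 4 regions of array 1 held 72294, 89830, 86540 and 91671 Q3-normalised counts, and the 3 of array 2 held 26710, 33747 and 37132. Against the control sum of the same array these were log2 differences of 0.63 and -1.07. Rnase1 did not split in this way, at 13660 to 16418 on array 1 and 10380 to 15148 on array 2. At 5 days Rnase1 was split instead. It was 8996, 9631 and 10176 on array 1 and 6977, 5725 and 5075 on array 2, while the Amy2a1 ranges of both arrays overlapped. Whether these splits follow animals, cores or slides cannot be told apart. The ratio difference from control had the same sign on both arrays at 7 of 9 times, with opposite signs at 24 hours (-0.27 on array 1 and 0.34 on array 2) and 14 days (0.56 and -0.79). At 3 and at 72 hours array 1 had 1 region.

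**Figure D4:**
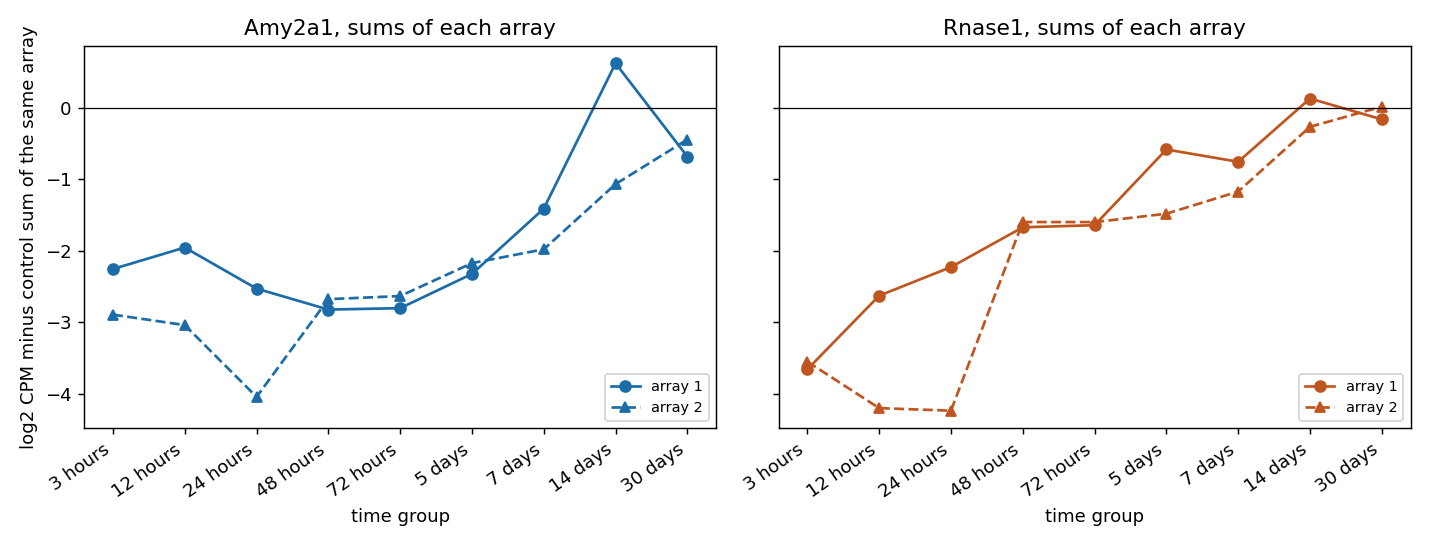
Log2 CPM of the Amy2a1 (left) and Rnase1 (right) sums of each array minus the control sum of the same array, by time, with circles and a solid line for array 1 and triangles and a dashed line for array 2. The arrays lie close together at 48 and 72 hours (for Amy2a1 -2.82 and -2.68 at 48 hours) and apart at 12 and 24 hours, and for Amy2a1 at 14 days (0.63 and -1.07). Array 1 holds 1 region at 3 and at 72 hours.

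Region by region both targets tended to move together. After the mean of each time on each array was removed, Pearson's r between their log2 values was 0.710 over 55 regions, which share sections and scaling. Over the 20 sums their log2 CPM correlated at 0.808, which ranked Rnase1 29th among the 2687 other targets for Amy2a1, and Amy2a1 137th for Rnase1. Each thus had closer companions than the other.

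The 5 targets most like Amy2a1 over the 20 sums were Pnliprp2 (r = 0.952), a lipase-related enzyme, the granule protein gene Sycn (0.943), the elastase Cela1 (0.893), the hepcidin gene Hamp2 (0.890) and the trypsinogen Prss2 (0.887). At 72 hours Sycn stood at -2.32, Cela1 at -1.89, Prss2 at -1.76 and Hamp2 at -1.03, all called lower in edgeR, beside -2.70 for Amy2a1, and Pnliprp2 stood at -0.98 and was not called. The 4 most like Rnase1 were Clps (0.966), the pancreatic serpin gene Serpini2 (0.962), the granule lectin gene Zg16 (0.961) and the zinc transporter gene Slc39a5 (0.956). None of these 4 was called at 72 hours, where Clps stood at -1.43, while all 4 were called lower at 3 hours, with Clps at -3.93. These correlations describe 20 sums in which all targets share library and scaling. The targets were picked over the same sums that gave their calls, so those calls are no separate support for the likeness.

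The digestive enzymes of the juice, with both members counted among them, gave the frame for both. Of 32 digestive enzyme genes listed, 22 were in the tables and 20 were tested. Of the 20, 18, 19, 19, 9 and 7 were called lower through the times of 3 to 72 hours, 1 was at 5 days (Ctrc, a chymotrypsin, at -1.54), and 0 were later, while none was called higher than in control. Of all tested targets, 3.76, 21, 20.5, 1 and 0.409% were called lower through the same times of 3 to 72 hours. At 5 days the share was 0.112%. The median log2 difference over the list was -2.27, -3.16, -1.35 and -0.67 for the times of 3, 24 and 72 hours and 7 days, beside -0.021, 0.0022, 0.0066 and -0.0049 over all tested targets. Within the list Amy2a1 had the 8th lowest difference at 3 hours, the 3rd lowest at 48 hours and, except for 14 days, the lowest from 72 hours on. The next lowest at 72 hours was the lipase gene Pnlip at -2.59 ± 0.64, within the error of Amy2a1. Rnase1 was the 2nd lowest at 3 hours, the 12th at 24 hours and the 11th at 48 hours. At 72 hours 14 of the 20 were called higher than at 24 hours, Rnase1 among them, and Amy2a1 was not called. In that comparison 7.96% of all tested targets were called higher.

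No relative of either member had a group median above 4.27 times the negative-probe value. Amy1 stayed at medians of 1.07 to 1.36 times the negative-probe value in all groups and was not tested. Of 21 genes listed for the ribonuclease A family and its inhibitor 8 were in the tables, and only Rnase1, Rnase4, Ang and Rnh1 were tested. Rnase4, a ribonuclease secreted by many tissues, was higher at 12 hours by 0.69 ± 0.14 and at 24 hours by 0.66 ± 0.14 (adjusted p = 0.00178 and 0.00231, edgeR), opposite to Rnase1, at times when 21.8% of all tested targets were called higher. Its levels were low, with a median of 4.18 times the negative-probe value at 24 hours and 1.93 in control. Rnh1, the cytosolic inhibitor that binds ribonucleases of this family, was higher at 3 hours by 0.41 ± 0.13 (adjusted p = 0.0453). Ang, the gene of angiogenin, which shares its locus with Rnase4, was not called at any time. Of the intracellular starch and glycogen genes, 7 of 11 were measured and 2 tested, and the phosphorylases Pygb and Pygl were called lower at 12 hours (-0.44 and -0.35) and at 24 hours (-0.30 and -0.33), where 21% and 20.5% of all tested targets were called lower.

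Granule proteins followed the enzymes in part. Of 11 tested, 6, 7 and 3 were called lower at 3, 24 and 72 hours and 0 at 30 days, against 3.76%, 20.5% and 0.409% of all tested targets at the first 3 of these times. At 24 hours Zg16 stood at -4.17, the trefoil factor Tff2 at -3.75, Sycn at -3.30 and the granule membrane protein gene Gp2 at -2.03. The granule fusion protein gene Vamp8 was called higher at 0.39, as were 21.8% of all tested targets. The median of the 11 was -0.62 at 3 hours and -0.09 at 72 hours.

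Of 4 tested acinar transcription regulators 3 were called at 12 hours, 2 higher and 1 lower, a time when 42.9% of all tested targets were called. Xbp1, the secretory stress regulator, was higher at 12 hours by 0.96 on the log2 scale (adjusted p = 0.00223, edgeR). Nr5a2 was higher by 0.48 (adjusted p = 0.0290), and Bhlha15, which supports granule organisation, stood at -0.73 (adjusted p = 0.0212). None was called at another time against control. Ptf1a was measured and did not pass the filter on low values. Among 4 tested receptor and signalling genes, Cckar, the receptor through which caerulein acts, stood at -1.04 at 3 hours (adjusted p = 0.00246, edgeR), where 3.76% of all tested targets were called lower, and was called at no other time against control. Of the same 4 genes, Gna11 (-0.60) was called lower and the insulin receptor gene Insr (0.30) higher at 24 hours, and Gnaq (-0.52) lower at 48 hours, where 42.3% and 1.67% of all tested targets were called. Gna11 and Gnaq encode G protein alpha subunits.

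By summed level, ductal, fibroblast and macrophage markers stood higher at early times than in control, and neutrophil markers did not. The summed level of the 10 ductal markers measured was 5858 to 11033 Q3-normalised counts at 3 hours and 2156 to 5330 at 24 hours, against 1124 to 1300 in control. For the 9 fibroblast markers it was 3168 to 7812 at 24 hours and 982 to 1114 in control, and for the 12 macrophage markers 1863 to 3751 at 24 hours and 1242 to 1333 in control. In at least as many regions as not, 5 ductal markers at 3 hours, and 7 fibroblast and 8 macrophage markers at 24 hours, were above 2 times background, against 0 of each list in control. The 4 neutrophil markers measured summed to 520 to 613 at 24 hours and 613 to 680 in control. Yet 2 of them were above 2 times background in at least as many regions as not at 24 hours, against 0 in control. Islet markers reached 38118 in the highest region at 12 hours, against 681 to 1461 in control. The 6 acinar markers, which include the enzymes Cela1, Cpa1, Ctrb1 and Pnlip, summed to 19272 to 69301 at 24 hours and to 103429 to 142946 in control. Nuclei per region numbered 1356 ± 289 at 24 hours (SD, n = 6) and 1167 ± 102 at 14 days (n = 7), against 942 ± 242 in control (n = 7). At 72 hours the macrophage sum was 1293 to 1466, the ductal sum 1247 to 1957 and the fibroblast sum 1072 to 1846. The acinar sum was 63621 to 74302 at that time. The part of cell composition in the amylase and ribonuclease values was not tested.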

How the data were processed

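GeoMx regions of mouse pancreas were profiled by probe barcodes, deduplicated by GeoMx NGS Pipeline 2.3.3.10, as the file headers state. The authors deposited expected counts per target, which are averages over probes for a few targets, and a normalised signal equal to those counts times 1 factor per region, given as a ratio in the deposited region summary. As deposited, that summary also holds nuclei and reads as counts, and the percent of reads that were duplicates (saturation), made by the same pipeline per the file headers. The deposited probe table gives positions and an outlier score. The labels name limma and mm10 with no role, and the sources used here do not give how targets were filtered.

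Regions were grouped by the treatment label and assigned to array 1 or 2 by their names, and 0 columns were left unmapped. Targets above 2 times the negative-probe value in 3 or more regions were tested. Rounded counts of one group on one array were added, giving 20 sums of 1 to 4 regions, which were scaled by TMM and fitted in edgeR 4.0.16 (R 4.3.3) with group and array as terms, which left 9 residual degrees of freedom. Benjamini-Hochberg adjustment ran over all tested targets, and an SE is the size of the log2 difference over the square root of F. A call is an adjusted p under 0.05. Nothing says that the sums come from separate animals, so p-values may measure technical spread only. Ratios were tested by exact permutation of regions in Python 3.11.15. DESeq2 1.42.0, limma 3.58.1 (voom), other scalings, filters and sample units and leaving out each sum were alternatives. Both edgeR and permutation steps were tested on simulated data.

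The members, gene lists and tests were chosen with earlier results of these data known. Beside the members, the text names the targets most correlated with each over the sums, by a rule of 5 each (1 is not reported here), members of the lists of enzymes, amylases, ribonucleases, starch genes, granule proteins, acinar regulators and receptors, and markers. The replicate numbers of the labels were checked for pairing, which the check could not separate from array. The main fit did not use them.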

Additional observations from a re-analysis of the deposited data

Results flagged for a closer look

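One value stood apart from the other regions of its group. At 72 hours, region 3, on array 2, had a log2 ratio of Amy2a1 to Rnase1 of 1.46, and its gap to the next of the 4 regions was 0.873 of the group's range. Its Amy2a1 level of 12836 was the highest and its Rnase1 level of 4680 the lowest of the group. The check was run on 27 groups of values, of which chance flags about 1 in 20. Without that region the ratio at 72 hours differed from control by -1.17, against -1.01 with it.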

How the results depend on the processing

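The calls of Amy2a1 at 3, 12 and 24 hours, of Rnase1 at the same times and of both among all groups kept their direction and side of the threshold under every alternative run. Alternatives moved other differences across it. With total target counts, Rnase1 was called at 48 and 72 hours (-1.16 and -1.18) and Amy2a1 at 5 days (-1.95), while the signs turned at 14 days (0.071 for both) and for Rnase1 at 30 days (0.077). That scaling moved the median of all tested targets to 0.59 at 24 hours and 0.47 at 48 hours, and the negative probes moved it to 0.44 at 24 hours. Total counts called 17, 11 and 3 enzymes lower at 48 hours, 72 hours and 5 days, against 9, 7 and 1. With the negative probes Rnase1 at 30 days was 0.0019. The Rnase1 call between 72 and 24 hours was lost with the 75th percentile (1.35), background subtraction (1.77), no filter (1.32), the deposited limit of quantitation as filter (1.33) and no array term (1.36).

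With single regions as samples, whose p-values are too small, Rnase1 was called at 48 hours (-1.67), 72 hours (-1.44), 5 days (-1.01) and 7 days (-0.96) and between 30 and 5 days (0.96), and Amy2a1 at 5 days (-2.21), 7 days (-1.67) and between 30 and 5 days (1.66). With the replicate block added these were -1.72, -1.63, -1.02, -0.97 and 0.98 for Rnase1 and -2.22, -1.71 and 1.70 for Amy2a1. Same-numbered regions of different groups correlated at 0.162 on average, with a lowest value of -0.449, against -0.0291 for regions of other numbers. Lower numbers lie on array 1, and regions of different groups correlated at 0.230 within an array and -0.228 between arrays. The check therefore cannot tell whether the numbers mark pairs. Voom with a random block called Rnase1 at 48 and 72 hours (-1.67 and -1.46) and Amy2a1 at 5 days, 7 days and between 30 and 5 days (-2.20, -1.70 and 1.70). DESeq2 called the same 5 (-1.61, -1.62, -2.23, -1.70 and 1.70).

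Leaving out 1 sum in turn gave ranges of -3.12 to -2.43 for Amy2a1 at 48 hours, -3.10 to -2.39 at 72 hours and -0.91 to 0.45 at 14 days, with -2.42 at 72 hours and 0.17 at 14 days without the control sum of array 2. For Rnase1 the ranges were -0.33 to 0.21 at 14 days, -0.46 to 0.27 at 30 days (0.25 without the control sum of array 2), -0.49 to 1.20 between 24 and 3 hours and 0.78 to 2.48 between 72 and 24 hours (1.14 without the 72-hour sum of array 2). Leaving out 1 region in turn gave log2 ratio differences of -0.091 to 0.161 at 24 hours and -0.147 to 0.118 at 14 days. Every other ratio call was kept. At 3, 12, 48 and 72 hours and at 5 and 7 days every region lay outside the control range. Leaving out 1 region could therefore hardly change those calls, and regions of the same core will mostly have stayed in.

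Within 1 array no ratio passed the threshold (adjusted exact permutation p of 0.0857 to 0.314 on array 1 and 0.113 to 0.4 on array 2, where at most 3 regions stood against 3 and none could). On array 1 the differences were 1.48, 0.77, -0.27, -1.06 and -1.09 for the times of 3, 12, 24, 48 and 72 hours and -1.67, -0.62, 0.56 and -0.46 for those of 5, 7, 14 and 30 days. On array 2 they were 0.66, 1.19, -1.10 and -1.05 for 3, 12, 48 and 72 hours and -0.73, -0.91 and -0.49 for 5, 7 and 30 days. The causes of the other changes were not tested. Background bore on Rnase1 at 24 hours on array 2, where 2 regions lay at 7.01 and 8.98 times it and subtraction moved their log2 ratios to 2.90 and 2.75, against 2.71 and 2.61 without it. The 2 sums a group limit every call.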

Other observations

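Counts of both targets were also set against the nuclei counted in each region. These are raw counts per nucleus, which keep each library's depth, and they are given as values with no test. Amy2a1 stood at 5.33 ± 1.95 counts per nucleus at 24 hours (SD, n = 6) and 6.18 ± 2.40 at 48 hours (n = 5), against 66.5 ± 29.7 in control (n = 7). At 14 days it stood at 54.1 ± 24.4 and at 30 days at 36.6 ± 8.46 (n = 7 each). Rnase1 stood at 1.13 ± 0.29 counts per nucleus at 3 hours (n = 3), 1.46 ± 0.80 at 24 hours and 3.24 ± 1.03 at 48 hours, against 16.1 ± 5.84 in control. At 30 days it stood at 12.6 ± 1.39, or 78.0% of the control mean, beside 97.3% by Q3-normalised counts.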
